A study of Mus musculus with 6 samples.

Results

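The mature arms of mir-199a, mir-199b, mir-214 and mir-140 were measured by small RNA-seq of whole brain from wild-type C57BL/6 mouse embryos at E15.5. These are 8 of the 1915 mature miRNAs in the count files, namely mmu-miR-199a-5p, mmu-miR-199a-3p, mmu-miR-199b-5p, mmu-miR-199b-3p, mmu-miR-214-3p, mmu-miR-214-5p, mmu-miR-140-5p and mmu-miR-140-3p, and all 8 were found by name. The 2 groups were female and male embryos, sexed by the absence or presence of testicular cords, with 3 libraries each, and every library pooled RNA from 2 to 3 embryos. No treatment was given, and both groups shared genotype, strain and stage. The members were chosen by their known mesenchymal and cartilage expression after the male and female levels of several of them in these same libraries had been seen. Their difference between the sexes is therefore given as a description, with no p-value, and levels are given on the counts-per-million scale (CPM), relative to all reads on miRNAs in the library.

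miRNAs are short RNAs cut from a hairpin precursor, from which either the 5′ arm (5p) or the 3′ arm (3p) can be loaded into the silencing complex, and bases 2 to 8 of the loaded arm, the seed, pair with target mRNAs. miR-199a and miR-214 are made from Dnm3os, a non-coding transcript that runs antisense to Dnm3 and is expressed in mesenchyme of the head, limbs and skeleton, where it is needed for normal bone growth. miR-140 is made from an intron of Wwp2 and is best known from cartilage, including that of the skull base. Both are used as markers of mesenchyme and its derivatives and not of neurons.

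RefSeq (GRCm38.p6) gave the mature sequence of 6 of the 8 arms, which hold 5 different sequences and 5 seeds. They are shown 5′ to 3′ with the seed in capitals, because they show which of the counted names can be told apart by a read.
mmu-miR-199a-5p: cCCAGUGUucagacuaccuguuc
mmu-miR-199a-3p: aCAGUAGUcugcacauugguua
mmu-miR-199b-3p: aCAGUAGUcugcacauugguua
mmu-miR-214-3p: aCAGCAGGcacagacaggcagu
mmu-miR-214-5p: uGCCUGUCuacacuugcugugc
mmu-miR-140-3p: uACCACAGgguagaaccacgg

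miR-199a-3p and miR-199b-3p have the same sequence throughout, so a read of one is a read of the other, and these 2 names are not independent measurements. The arms are 21 to 23 bases long, and levels of different arms are compared per read without scaling for length. The precursors of the mir-199 family show the same thing from the side of the locus. In them, the mature arms that the RefSeq table places in each precursor are in capitals.
Mir199a-2: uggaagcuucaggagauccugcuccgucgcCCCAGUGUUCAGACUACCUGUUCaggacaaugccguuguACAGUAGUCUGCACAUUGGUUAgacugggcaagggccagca
Mir199a-1: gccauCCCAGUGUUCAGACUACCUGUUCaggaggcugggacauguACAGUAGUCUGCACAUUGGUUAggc
Mir199b: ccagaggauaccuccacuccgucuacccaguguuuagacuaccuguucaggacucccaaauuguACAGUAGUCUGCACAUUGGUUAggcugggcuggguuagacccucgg

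All 5 precursors matched mm9 (NCBIM37), the build that the authors mapped to, at 1 place each. Mir199a-2 lies on chromosome 1 from 164147945 to 164148054 on the forward strand, within an exon of Dnm3os and opposite an intron of Dnm3. Mir214 lies on the same strand of chromosome 1 from 164153499 to 164153608, also within an exon of Dnm3os, with 5444 bases between Mir199a-2 and Mir214. Mir199a-1 lies on chromosome 9 from 21300939 to 21301008 on the reverse strand, opposite an intron of Dnm2, and Mir199b on chromosome 2 from 32173980 to 32174089 on the forward strand, opposite an intron of Dnm1. Mir140 lies on chromosome 8 from 110075144 to 110075213 on the forward strand, within an intron of Wwp2. Counts of miR-199a-5p and miR-199a-3p can thus come from chromosomes 1 and 9, and those of the 3p name also from chromosome 2.

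The reads on miRNAs numbered 14802675 to 59362011 per library in females and 18682658 to 43919305 in males. Female library 2 stood apart, with the highest depth and the fewest miRNAs detected, 660 against 790 to 915 in the other 5. As a check of the tissue, all 9 brain miRNAs on a marker list, among them the neural miR-9-5p and miR-124-3p, were detected in every library, and their summed level ranged from 230952 to 274659 CPM in females and from 185191 to 213814 CPM in males.

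All 8 arms were detected in every library, with at least 559 reads, so that counting error was at most 4.23% (1 SD, from the square root of the count) and small beside the spread between libraries. It covers counting only, since reads without molecular identifiers can be copies of one molecule. By mean level over the 6 libraries, miR-199a-3p ranked at place 22 of all 1915 miRNAs, miR-140-3p at place 43, miR-199a-5p at 92, miR-214-3p at 149, miR-140-5p at 226, miR-214-5p at 265 and miR-199b-5p at 329. In every library the order began with miR-199a-3p, miR-199b-3p, miR-140-3p and miR-199a-5p and ended with miR-199b-5p. Between these, miR-214-3p lay above miR-214-5p in every library. miR-140-5p changed places, lying above miR-214-3p in female libraries 2 and 3. In male library 1 it was level with miR-214-5p within counting error (2.02%), at 2453 against 2458 reads. Its place relative to these arms was thus not the same in all libraries.

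**Figure D1:**
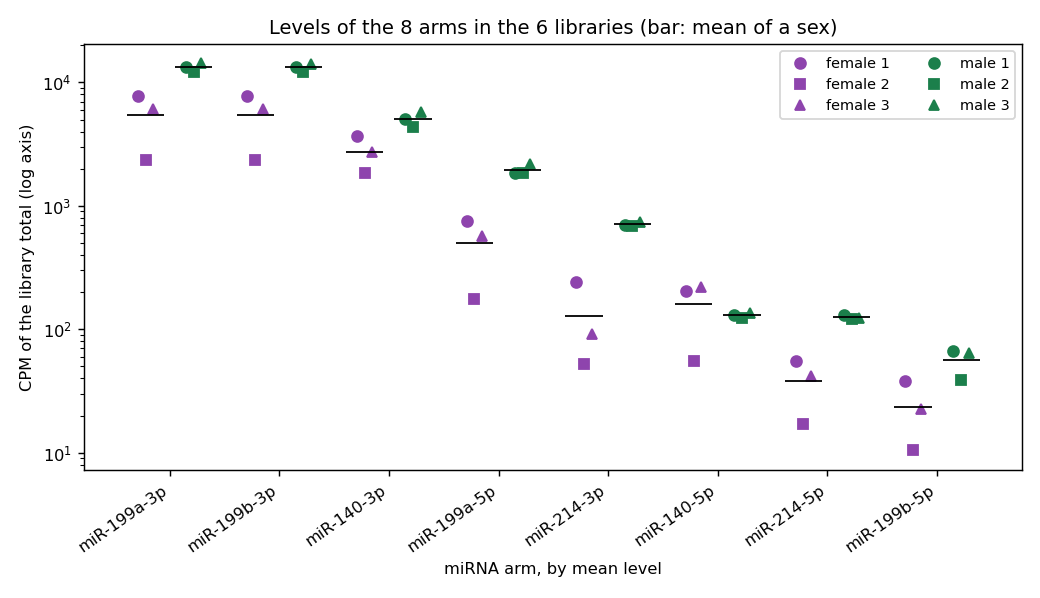
Level of each arm in CPM of the library total (log axis) in the 3 female and 3 male libraries, with the mean of each sex as a bar. The male points lie above the female points for 7 of the 8 arms, the female points are more spread than the male points for each arm, and female library 2 is the lowest of all 6 libraries for each arm.

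miR-199a-3p, the most abundant arm of the group, stood at 7795, 2368 and 6099.6 CPM in the females (libraries 1, 2 and 3, the order kept in what follows) and at 13444, 12254 and 14273 CPM in the males. Each male library lay above each female library, and the lowest of the 3 males was 1.57 times the highest female. The means were 5421 ± 2776 CPM in females and 13324 ± 1015 CPM in males (SD, n = 3 per sex). The name miR-199b-3p had nearly the same counts, with 0.256% to 0.595% fewer reads than miR-199a-3p in a library.

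miR-199a-5p, the other arm of the same precursors, was measured at 750.4, 176 and 567 CPM in females and at 1847, 1857 and 2195 CPM in males. The sexes did not overlap, and the lowest male value was 2.46 times the highest female value. The means were 498 ± 293 CPM and 1967 ± 198 CPM (SD, n = 3 per sex), a male mean 3.95 times the female mean, against 2.46 times for miR-199a-3p.

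miR-199b-5p is the 5p arm of the precursor opposite Dnm1. Whether reads of the far more abundant miR-199a-5p were counted under its name was not tested. It was scarce, at 37.8, 10.4 and 22.5 CPM in females and at 66.1, 39.0 and 63.6 CPM in males. The sexes were separated by little, since male library 2 was only 1.03 times female library 1. That gap is within the counting error of female library 1, 4.23% on 559 reads. Its share of all miR-199-5p reads was 3.81% to 5.59% in females and 2.06% to 3.46% in males, again without overlap.

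miR-214-3p, which is transcribed with miR-199a-2 in Dnm3os, showed the largest relative difference of the 8 arms. Its level was 243, 52.2 and 91.3 CPM in females and 699.8, 686 and 745 CPM in males. The lowest male library was 2.82 times the highest female library, and the means were 129 ± 101 CPM and 710.2 ± 30.7 CPM (SD, n = 3 per sex). The opposite arm, miR-214-5p, was measured at 54.9, 17.0 and 41.7 CPM in females and at 132, 121 and 124 CPM in males, also without overlap, with a male mean 3.31 times the female mean.

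The arms of the cartilage miRNA differed in direction. miR-140-3p was measured at 3651, 1862 and 2745 CPM in females and at 5033, 4386 and 5747 CPM in males, so that the sexes did not overlap and the male mean was 1.84 times the female mean. miR-140-5p was measured at 204, 55.8 and 222 CPM in females and at 131, 124 and 137 CPM in males. Here the male libraries lay between female library 2 and the other 2 female libraries, and the male mean was 0.814 times the female mean.

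The spread within a sex was a feature of the female group. Over the 8 arms, the highest female library was 1.96 to 4.66 times the lowest, whereas the highest male library was 1.09 to 1.69 times the lowest. Female library 2 was the lowest library for all 8 arms, and female library 1 was the highest female library for 7 of them, the exception being miR-140-5p. Without female library 2, the male mean of miR-214-3p was 4.25 times the female mean in place of 5.52, that of miR-199a-3p 1.92 times in place of 2.46, and that of miR-140-3p 1.58 times in place of 1.84. miR-140-5p then lay higher in both remaining female libraries than in any male library, at a male mean of 0.614 times the female mean.

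Summed, the 8 arms took 2.05%, 0.690% and 1.59% of the reads in females and 3.47%, 3.16% and 3.75% in males. With the shared 3p sequence counted once, the shares were 1.27%, 0.454% and 0.979% in females and 2.14%, 1.95% and 2.33% in males. The ratio of the male to the female mean was 2.40 with both names and 2.37 with one. In whole brain, more cells of a type and more of its RNA per cell cannot be told apart, and the counts are relative to all miRNA reads.

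In edgeR's quasi-likelihood test, run on the 1120 miRNAs that had 10 or more reads in total, 6 of the 8 arms passed an adjusted p of 0.05 (Benjamini-Hochberg) with the higher level in males. Over all miRNAs tested, 3.21% passed with males higher and 5.27% with females higher. Every male CPM was higher than every female CPM for 7 of the 8 arms, against 15.4% of all miRNAs tested. Because the sex comparison was known when the arms were listed, and 2 of the names share their reads, nothing is read from these counts. All 8 arms passed the filter on low counts, and the arms that did not pass the test were miR-199b-5p and miR-140-5p.

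The fitted log2 fold change, male over female, was 2.38 (SE 0.33) for miR-214-3p, 1.90 (SE 0.30) for miR-199a-5p and 1.63 (SE 0.32) for miR-214-5p. It was 1.20 (SE 0.29) for the shared miR-199-3p sequence under either name, 1.15 (SE 0.39) for miR-199b-5p and 0.77 (SE 0.23) for miR-140-3p. For miR-140-5p it was -0.39 (SE 0.30). Against these, the median log2 fold change of all miRNAs tested was -0.02, and that of the 8 arms was 1.20.

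**Figure D2:**
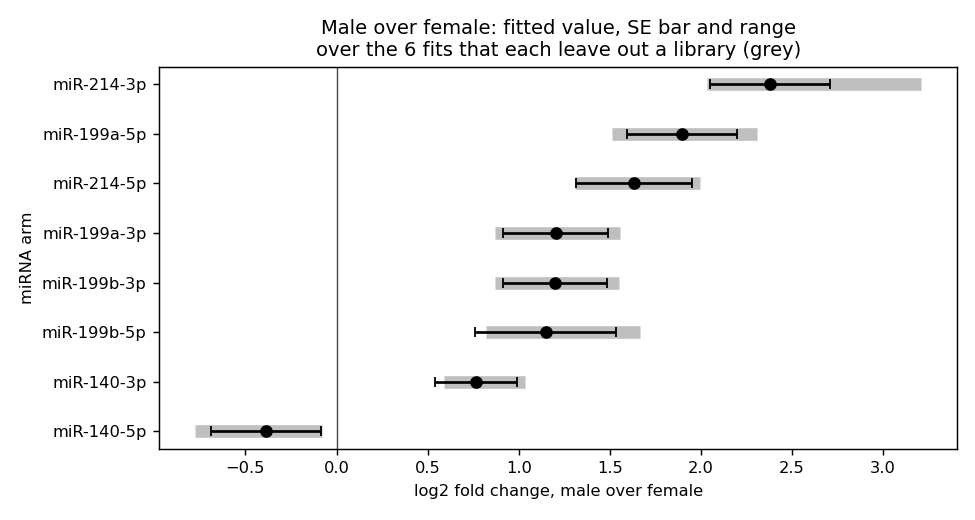
Log2 fold change of each arm, male over female, from edgeR (point) with its SE (bar) and the range over the 6 fits that each leave out 1 library (grey). The 7 arms other than miR-140-5p stay above 0 in each of these fits, between 0.59 for miR-140-3p and 3.21 for miR-214-3p, and miR-140-5p stays below 0, from -0.77 to -0.08.

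When the test was repeated on 5 libraries, omitting each one once, the arms that passed with males higher numbered between 2 and 7. The lowest number came without male library 1, where miR-214-3p and miR-199a-5p alone still passed and the male-higher calls over all miRNAs fell to 1.28%. These 2 arms passed in all 6 such fits, miR-199a-3p, miR-199b-3p and miR-214-5p in 5, miR-199b-5p and miR-140-3p in 3, and miR-140-5p in 1, without female library 2, with females higher. Over all miRNAs tested, the share that passed with males higher was 1.28% to 7.84% in these 6 fits. Without female library 2, 203 of 1110 miRNAs passed in either direction, 87 of them with males higher.

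Ratios between arms were taken within a library, where depth and scaling cancel. The 3p reads of mir-199a can include those of the Mir199b precursor, whose 3p arm has the same sequence, so this ratio is not that of mir-199a alone. The 3p arm of mir-199a had 10.4, 13.4 and 10.8 times the reads of its 5p arm in females, and 7.28, 6.60 and 6.50 times in males. Each male ratio was below each female ratio, and the mean log2 ratio was 0.75 lower in males. For mir-214 the difference went the other way. Its 3p arm had 4.42, 3.06 and 2.19 times the reads of the 5p arm in females and 5.32, 5.69 and 5.98 times in males, with a mean log2 ratio 0.87 higher in males. For mir-140 the 3p arm had 17.9, 33.4 and 12.4 times the reads of the 5p arm in females and 38.3, 35.5 and 42.1 times in males, with a mean log2 ratio 0.98 higher in males.

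**Figure D3:**
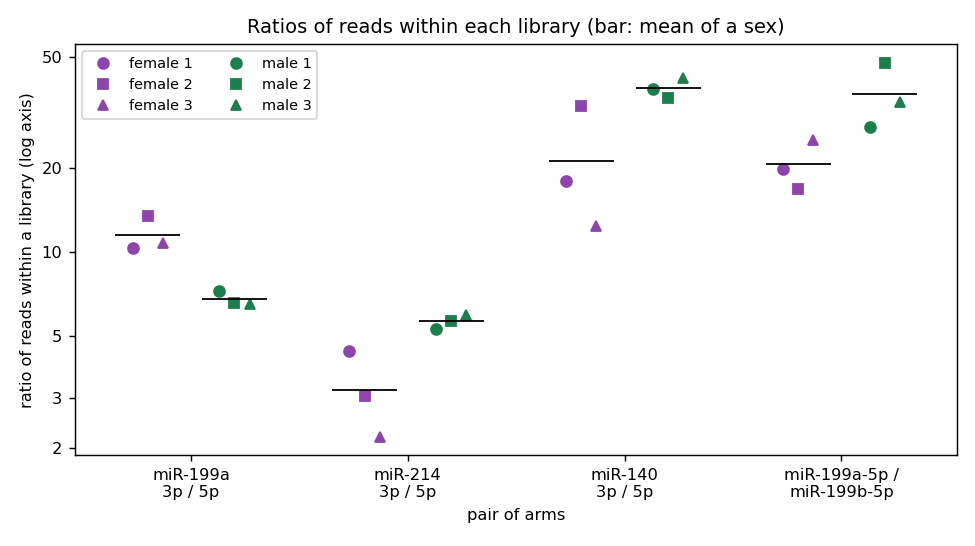
Ratio of reads between pairs of arms within each library (log axis), with the mean of each sex as a bar. The 3p reads of miR-199a can include those of Mir199b, which has the same 3p sequence. The female and male points do not overlap for any of the 4 pairs, the male points lie lower for miR-199a and higher for the other 3, and female library 2 comes close to the males for miR-140, at 33.4 against 35.5 to 42.1.

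In both precursors whose 2 arm sequences were at hand, the arm with the larger log2 fold change was the one richer in G and C. For mir-199a, miR-199a-5p holds 52.2% GC and miR-199a-3p 40.9%, and for mir-214, miR-214-3p holds 59.1% and miR-214-5p 54.5%. Between precursors the order differed. miR-140-3p holds 57.1% GC, more than either arm of mir-199a. Its log2 fold change of 0.77 was below those of miR-199a-3p (1.20) and miR-199a-5p (1.90). The reads of miR-199a-3p can include those of Mir199b. The part of base composition in the ratios was not tested.

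Arms of miR-214 were also set against those of miR-199a. This is not a comparison within Dnm3os alone, since reads of miR-199a-3p can also come from Mir199a-1 and Mir199b, and those of miR-199a-5p from Mir199a-1. Reads of miR-214-3p relative to miR-199a-3p were 0.0312, 0.0220 and 0.0150 in females and 0.0521, 0.0560 and 0.0522 in males. The sexes did not overlap, and the mean log2 ratio was 1.30 higher in males. The 5p arms had the opposite direction. miR-214-5p was 0.0732, 0.0966 and 0.0735 of miR-199a-5p in females and 0.0712, 0.0649 and 0.0567 in males, with a mean log2 ratio 0.33 lower in males. Male library 1 lay close to female libraries 1 and 3, and the highest ratio was that of female library 2. miR-199a-5p had 16.9 to 25.3 times the reads of miR-199b-5p in females and 27.9 to 47.6 times in males. For miR-199a-3p relative to miR-140-3p, the ratio was 2.14, 1.27 and 2.22 in females and 2.67, 2.79 and 2.48 in males.

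Other miRNAs known from mesenchyme were looked at from a list of 12, chosen by cell type but with earlier results of these data known. It holds the arms of miR-455 (cartilage), miR-143 and miR-145a (smooth muscle and pericytes), miR-152, miR-675 (from H19) and miR-483 (from Igf2). Of these, 2 passed edgeR's quasi-likelihood test after Benjamini-Hochberg adjustment with males higher, against 3.21% of all miRNAs tested. Both were arms of miR-483, with log2 fold changes of 2.10 (SE 0.26) for miR-483-3p and 3.12 (SE 0.92) for miR-483-5p. The other 10 did not pass. The median log2 fold change of the list was 0.33, and the summed level was 4561 to 7230.1 CPM in females and 4449 to 5460.0 CPM in males, so that the sexes overlapped. Within the list, 5 of 12 lay higher in every male than in every female library, against 15.4% of all miRNAs tested. Because of how the list was chosen, nothing is read from these counts. The 5 were miR-152-3p (male mean 1.44 times the female mean), miR-145a-5p (1.53 times), miR-675-3p (3.32 times) and both arms of miR-483. miR-675-3p was near the floor, at 0 to 2.01 CPM in females and 2.19 to 6.16 CPM in males. Its opposite arm, miR-675-5p, went the other way, with a male mean 0.198 times the female mean and overlapping sexes. miR-483-5p had only 3 reads in its lowest library. miR-143-3p, by far the most abundant of the list, was at 3757 to 6398 CPM in females and 3083 to 4025 CPM in males, and miR-455-3p, the other cartilage miRNA, at 158 to 356 CPM and 264 to 366 CPM. The number for the list was 1 in 4 of the 6 repeats that omitted a library, namely without female library 1 and without male library 1, 2 or 3, and was 3 at most.

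Among marker lists of other tissues, most miRNAs of skeletal muscle and epithelium were higher in males, and this did not hold for blood and endothelium. These lists too were chosen with earlier results of these data known. Over all miRNAs tested, 3.21% passed edgeR's test with males higher and 5.27% with females higher. For skeletal muscle, 5 of the 7 that could be tested, of 8 listed, passed the same test with males higher, and the summed level was 391.6 to 1193 CPM in females and 5533 to 6159 CPM in males. Of its defining miRNAs, miR-206-3p was at 122 to 382 CPM in females and 3534 to 4229 CPM in males, and miR-208b-3p had no read in any library. For epithelium, 6 of 7 passed with males higher, with a summed level of 729.96 to 1545 CPM in females and 9181 to 9499 CPM in males. miR-205-5p, a marker of skin epithelium, was at 39.3 to 177 CPM in females and 3401 to 3799 CPM in males. For blood, 1 of 7 passed with males higher, miR-486a-5p, and the sum was 736 to 1387 CPM in females and 1637 to 2024 CPM in males. miR-486a-5p alone made up most of that sum, at 611 to 1341 CPM in females and 1571 to 1930.2 CPM in males. The median log2 fold change of the 7 was -0.52, with 2 of them above 0, and the red cell miRNA miR-451a overlapped between the sexes at 10.7 to 41.5 CPM and 24.4 to 37.7 CPM. For endothelium, both arms of miR-126a passed with females higher, at a sum of 3864 to 8146 CPM in females and 2690.3 to 3899.8 CPM in males, ranges that overlapped. Of the 9 brain miRNAs, 5 passed with females higher and the other 4 did not pass. Of these 4, miR-129-5p lay higher in every male library, at 572.5 to 791 CPM in females and 998 to 1082 CPM in males. The part of muscle, epithelial or other tissue in the levels of the 8 arms was not tested.

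**Figure D4:**
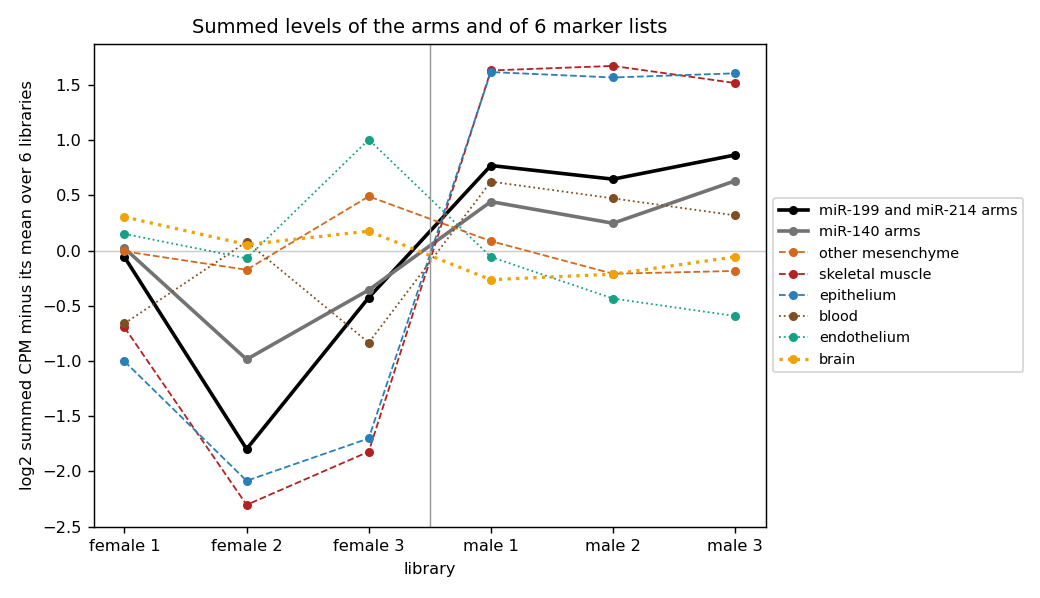
Summed CPM of the miR-199 and miR-214 arms, of the miR-140 arms and of 6 marker lists in each library, as log2 minus its mean over the 6 libraries. The mir-199 and mir-214 sum, the mir-140 sum and the muscle and epithelium lists lie higher in each male library than in any female library and are lowest in female library 2. The other mesenchyme and endothelium lists overlap between the sexes. The blood list, carried by miR-486a-5p, is higher in males, and the brain list, mostly miR-9-5p, is higher in females.

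The step between the sexes was larger for muscle and epithelium than for the 8 arms. The male mean of the summed level was 8.30 times the female mean for muscle and 8.71 times for epithelium, against 2.56 times for the arms of miR-199 and miR-214 and 1.78 times for those of miR-140. Female library 1, the one of its sex with the highest sum for muscle (1193 CPM) and epithelium (1545 CPM), was also the highest for the summed arms of miR-199 and miR-214, at 16639 CPM against 4987 and 12906 CPM in female libraries 2 and 3. For miR-140 the female sums were 3854, 1918 and 2966 CPM in the same order.

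The profiles nearest to the members were sought among the 545 other miRNAs that averaged 100 reads or more, by the root mean square difference of log2 CPM from its mean over the 6 libraries. For miR-214-3p the nearest were miR-133a-3p of skeletal muscle (0.26) and the epithelial miR-200b-3p (0.33) and miR-429-3p (0.36), where the median over all was 1.52. Of the arms made wholly or in part from Dnm3os, miR-199a-5p differed from miR-214-3p by 0.42, its opposite arm miR-214-5p by 0.54 and miR-199a-3p by 0.71. For miR-199a-3p the nearest were the muscle miR-1a-3p (0.12), miR-218-1-3p (0.16) and miR-185-3p (0.17), with a median over all of 0.94. For miR-140-3p they were miR-31-5p (0.11), miR-125a-3p (0.13) and miR-1955-5p (0.18), with a median of 0.63. These differences describe 6 libraries that fall into 2 sexes, and any miRNA with the same step between the sexes and a low value in female library 2 comes out as near.

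miRNAs that share a seed with a member could act on the same targets, so their levels were looked up as well. In the RefSeq table, miR-761 has the seed of miR-214-3p and miR-497b that of miR-140-3p. They are shown with the seed in capitals.
mmu-miR-761: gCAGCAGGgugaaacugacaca
mmu-miR-497b: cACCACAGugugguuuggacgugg

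miR-761 had no read in any library, which allows a level of up to 0.203 CPM in the shallowest of them (3 counts, counting error only). miR-497b had 0, 0 and 15 reads in females and 22, 12 and 0 in males, at most 1.18 CPM, against 1862 CPM or more for miR-140-3p.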

How the data were processed

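Small RNA was sequenced from 6 libraries, 3 per sex. The authors trimmed reads with cutadapt 1.15, mapped them with Bowtie 1.2.1 to miRBase v.21 sequences and mm9, and quantified known miRNAs in the miRDeep2 workflow. They deposited raw read counts per mature miRNA, without normalization. A read that matches several names can be counted under each.

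CPM was computed from the library total. Counts were scaled by TMM and compared between the sexes with edgeR 4.0.16 (R 4.3.3), using the quasi-likelihood test, a minimum of 10 reads summed over the libraries, Benjamini-Hochberg adjustment over all miRNAs and a threshold of 0.05. SE was derived from the F statistic, as the size of the log2 fold change over root F. The study itself used DESeq2 with RUVr, tried here as an alternative (DESeq2 1.42.0, with 1 factor from edgeR's deviance residuals). Replicates are pools of embryos. An exact permutation test of 3 against 3 libraries cannot go below 0.1, so none was run. No 2 libraries had identical counts in more than 0.210% of miRNAs above 100 reads. Precursors were placed by exact match to NCBIM37 and annotated with GENCODE vM1. The edgeR procedure was tested on simulated data.

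The members and marker lists were chosen with earlier results of these data known. Named miRNAs are the members, up to 4 of each list with the highest mean level, those nearest in profile to miR-199a-3p, miR-214-3p and miR-140-3p and those sharing a seed with a member. miR-208b-3p, miR-483-5p, miR-145a-5p, miR-675-3p, miR-675-5p and miR-129-5p were named after their values were seen.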

Additional observations from a re-analysis of the deposited data

How the results depend on the processing

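Of 119 log2 fold changes of the 8 arms under other scalings, filters, tools, RUVr, a replicate block, the table without miR-199b-3p and each library left out, 118 moved by less than 1 SD between libraries and none changed sign. The exception was miR-214-3p without female library 1, at 3.21. Leaving out 1 of 3 libraries can hardly move a mean by 1 SD of its group. Nor can it easily change the sign where the sexes do not overlap. For those fits the tally therefore says little about stability. The arms that passed with males higher numbered 6, and 7 with upper quartile scaling, with 1 RUVr factor in edgeR or DESeq2 and with a block for the replicate number, where miR-199b-5p was added. Over all miRNAs, the share that passed with males higher was 3.21%, and it was 3.30% with upper quartile scaling and with the block, 8.21% and 10.4% with 1 RUVr factor in edgeR and DESeq2, and 7.84% without female library 2. They numbered 5 of 7 without the miR-199b-3p row, and 2 (without male library 1) to 7 over the fits that left out a library, in which arms that passed with females higher numbered 0 to 1. The replicate numbers did not pair the samples: same-numbered libraries correlated at -0.05 to 0.05 in their deviations from the means of the sexes.

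For the 12 other mesenchymal miRNAs, 2 passed with males higher, against 4 with DESeq2 and 1 RUVr factor. The number was 1 without a filter, 1 with at least 10 reads in every library, and 1 to 3 with a library left out. Over all miRNAs, the male-higher share was 3.21%, and 10.4% with DESeq2 and 1 RUVr factor. It was 1.88% without a filter, 5.27% with at least 10 reads in every library and 1.28% to 7.84% with a library left out. With females higher, the number of the 12 was 1 with 1 RUVr factor in either tool and 0 to 1 with a library left out. With that factor, 189 of 1120 miRNAs passed in edgeR and 216 in DESeq2, of which 92 and 116 with males higher. Scaling by library total in place of TMM moved the median log2 fold change of all miRNAs from -0.02 to 0.11. The cause of these shifts was not tested. The log2 ratio of the summed arms, 1.26, ranged from 0.93 to 1.60, and the arm ratios kept their direction, with a library left out. As the sexes did not overlap in the arm ratios, leaving out 1 library could not have reversed them. Depth did not limit the arms, but counts of a few reads, as for miR-497b, carry no comparison.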

Other observations

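miR-199a-3p was listed with 530, 365 and 560 more reads than miR-199b-3p in female libraries 1, 2 and 3 and with 1202, 2008 and 3120 more in male libraries 1, 3 and 2, although the mature sequences are the same. As a share of miR-199a-3p this was 0.459%, 0.260% and 0.256% in females and 0.479%, 0.580% and 0.595% in male libraries 1, 2 and 3. The sexes did not overlap, but female library 1 and male library 1 lay close, and the counting error of the surplus was not computed. What set this surplus was not tested.

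The nearest profiles changed when female library 2 was left out. Of the 9 miRNAs named by likeness to miR-199a-3p, miR-214-3p and miR-140-3p, 2 were named again. The nearest to miR-214-3p were then miR-429-3p (0.19), miR-483-3p (0.21) and miR-200a-5p (0.25), and the nearest to miR-199a-3p were miR-874-3p (0.05), miR-676-3p (0.09) and miR-532-5p (0.09), over 5 libraries.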
